A study of Mus musculus with 16 samples.

Results

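The Arg-TCT tRNAs are the arginine transfer RNAs with the anticodon TCT, and 6 rows of a small RNA count table from mouse cortex carry their name. They were taken by name alone, as every row whose label contains tRNA-Arg-TCT-, out of 18488 rows, of which 448 were tRNA rows and 25 were arginine tRNA rows. The 6 rows are the isodecoders TCT-1-1 to TCT-6-1, with 1 row each. Of these, 5 passed the filter on low values (a mean of at least 5 over 16 libraries), and TCT-6-1 did not.

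Small RNA was sequenced from the prefrontal cortex of 16 adult mice. The 8 PS19 mice (genotype PS19+/-) are heterozygous for a mutant human tau (MAPT) transgene under the mouse prion (Prnp) promoter, and the 8 WT mice are their littermates without it. All were on a mixed B6;C3 background, were perfused at about the same adult age, and had as many males as females in each genotype, although the sex of single mice was not used here. Libraries are named by genotype and the replicate number of the sample title, and the comparison asks whether the level of a row differed between PS19 and WT cortex. The prion promoter drives the transgene broadly in the nervous system, so PS19 is a model of tau overexpression and not of tau from its own locus. The labels give separate samples but do not tie them to litters.

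A tRNA carries an amino acid to the ribosome and reads a codon through its anticodon, and Arg-TCT tRNAs read the arginine codon AGA. Isodecoders are tRNAs that share the anticodon but differ elsewhere in the sequence. Most Arg-TCT genes are used in many tissues, while TCT-4 is made mainly in the nervous system, where it forms a large part of the Arg-TCT pool. The C57BL/6J strain carries a base change in the T arm of the TCT-4 gene that lowers the mature tRNA. Together with the loss of the ribosome rescue factor GTPBP2, that allele leads to ribosomes paused at AGA codons and to the death of neurons. The allele carried by each of these mice was not examined here. Small RNA libraries are built by adapter ligation and catch tRNA fragments more readily than whole tRNAs, which are folded and modified, so the values below are reads per row and not amounts of charged tRNA.

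RefSeq lists 5 mouse genes with this anticodon on GRCm38.p6, and its names could not be paired with the row names, so that no row is given a position here. n-TRtct5, known as the nervous-system gene, lies at chr1:173390329-173390402, spans 74 bases and sits in an intron of Aim2, a cytosolic DNA sensor. That label is prior knowledge and was not checked against the rows, and the numbers in gene names and row names need not match. n-TRtct4 lies at chr11:69123482-69123568, in the last exon (4 of 4) of Hes7, a repressor of the segmentation clock, and within its annotated UTR. n-TRtct2 lies at chr3:122292948-122293032, in an exon of the non-coding gene Gm17494. The remaining genes, n-TRtct1 at chr19:12011588-12011673 and n-TRtct3 at chr13:21917162-21917247, overlap no annotated gene, and the nearest coding genes are Osbp at 17476 bases and Zfp184 at 27847 bases. These 4 other genes span 85 to 87 bases.

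Values are normalized read counts, that is, reads divided by 1 size factor per library. TCT-4-1 gave 93.1, 35.7, 62.2, 51.2, 46.2, 30.4, 41.1 and 23.4 normalized counts in PS19 replicates 1 to 8. It gave 67.9, 88.4, 106.9, 34.2, 25.0, 39.0, 29.0 and 42.0 in WT replicates 1 to 8. PS19 replicate 1 and WT replicates 2 and 3 held its highest values, PS19 replicate 8 its lowest, and the ranges of the genotypes overlapped almost fully. The row rested on 28 to 125 reads per library, 826 reads in all, or 1.51 to 5.42 RPM (reads scaled to the library total) with a median of 2.84. By its mean of 51.0 normalized counts over the 16 libraries it ranked 321st of the 448 tRNA rows.

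TCT-4-1 did not differ detectably between the genotypes. Its mean was 47.9 ± 21.9 in PS19 and 54.1 ± 30.3 in WT (SD, n = 8 each). The log2 difference, PS19 minus WT, was -0.11 ± 0.32 (SE). The two-sided p was 0.742 in limma (adjusted p = 0.9998 over all tested rows) and 0.756 in the exact permutation test over the 12870 assignments of 8 and 8 libraries. The 95% interval of the log2 difference ran from -0.77 to 0.56, or from 0.585-fold to 1.47-fold on the scale of value + 1, so that a moderate change in either direction could not be told from none. In 5 of 8 PS19 libraries the row lay above the WT median.

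**Figure D1:**
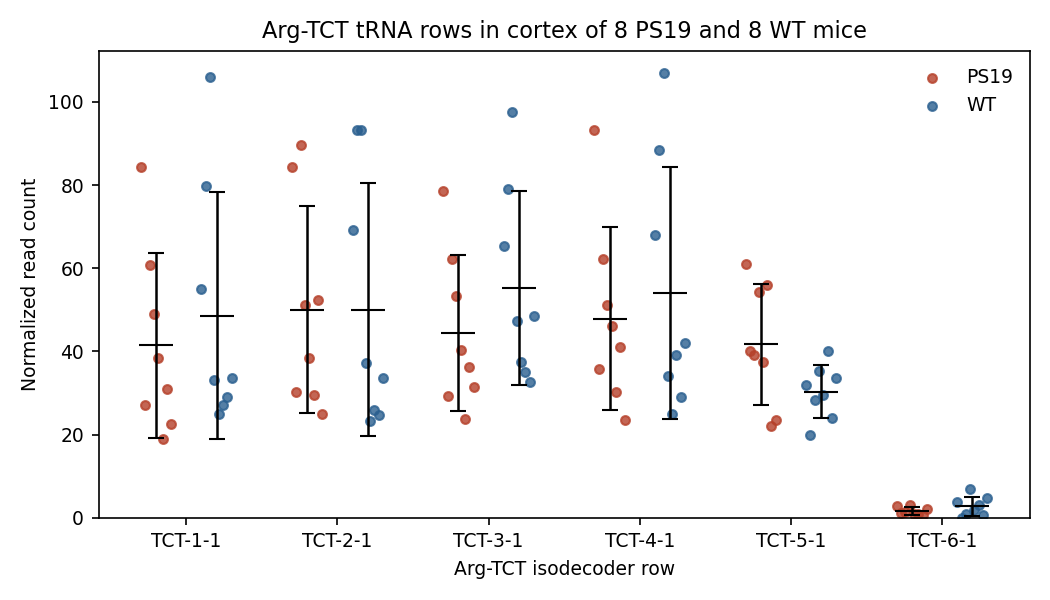
Normalized read counts of the 6 Arg-TCT rows (vertical axis) by isodecoder (horizontal axis), with 1 point per library and the mean and SD of 8 PS19 and 8 WT libraries. The genotypes overlap in each row, TCT-1-1 to TCT-4-1 share a range of about the same height, TCT-5-1 is narrower and TCT-6-1 lies near 0.

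TCT-1-1 gave 84.4, 27.1, 60.8, 49.1, 38.3, 19.0, 30.9 and 22.7 normalized counts in PS19 replicates 1 to 8 and 55.1, 79.9, 106.1, 33.2, 25.0, 27.0, 29.0 and 33.6 in WT replicates 1 to 8. Its high libraries were again PS19 replicate 1 and WT replicates 2 and 3, and the genotypes overlapped. The means were 41.5 ± 22.2 in PS19 and 48.6 ± 29.7 in WT (SD, n = 8 each), and the log2 difference was -0.19 ± 0.34 (SE; limma p = 0.586, exact permutation p = 0.615).

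TCT-2-1 gave 84.4, 30.3, 89.7, 51.2, 38.3, 29.4, 52.4 and 24.9 normalized counts in PS19 replicates 1 to 8 and 69.2, 93.2, 93.2, 37.2, 23.2, 26.0, 24.8 and 33.6 in WT replicates 1 to 8. PS19 replicate 3 stood beside PS19 replicate 1 and WT replicates 2 and 3 at the top. The means were 50.07 ± 24.9 in PS19 and 50.04 ± 30.4 in WT (SD, n = 8 each), with a log2 difference of 0.07 ± 0.35 (SE; limma p = 0.833, exact permutation p = 0.846).

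TCT-3-1 gave 78.6, 29.2, 62.2, 53.3, 40.3, 23.7, 36.3 and 31.4 normalized counts in PS19 replicates 1 to 8 and 65.3, 78.9, 97.5, 47.3, 37.4, 35.02, 32.5 and 48.5 in WT replicates 1 to 8. The same 5 libraries as for the rows before it, PS19 replicates 1 and 3 and WT replicates 1 to 3, were its highest. The means were 44.4 ± 18.8 and 55.3 ± 23.3 (SD, n = 8 each), and the log2 difference was -0.31 ± 0.28 (SE; limma p = 0.279, exact permutation p = 0.287).

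TCT-5-1 gave 61.1, 40.1, 39.1, 54.4, 37.4, 56.0, 22.0 and 23.4 normalized counts in PS19 replicates 1 to 8. It gave 32.0, 19.97, 28.2, 35.2, 29.4, 40.0, 24.0 and 33.6 in WT replicates 1 to 8. PS19 replicates 1, 4 and 6 lay well above every WT library and PS19 replicate 2 lay at the level of the highest, while PS19 replicates 7 and 8 lay among the lowest of both genotypes. WT replicate 2, among the highest libraries for TCT-1-1 to TCT-4-1, held the lowest value of TCT-5-1. The means were 41.7 ± 14.6 in PS19 and 30.3 ± 6.36 in WT (SD, n = 8 each), and 6 of 8 PS19 libraries lay above the WT median. The log2 difference of 0.39 ± 0.24 (SE) was the largest in size among the isodecoders and did not pass the threshold (limma p = 0.1195, adjusted p = 0.9998, exact permutation p = 0.0979). Its 95% interval ran from -0.11 to 0.89. Without PS19 replicate 7 it was 0.51 (limma, unadjusted p 0.0433, adjusted p = 0.999).

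TCT-6-1 was close to the limit of detection, with 35 reads over the 16 libraries. It held 2, 1, 1, 3, 1, 1, 1 and 3 reads in PS19 replicates 1 to 8 and 3, 0, 1, 7, 2, 3, 1 and 5 reads in WT replicates 1 to 8. The single library without a read was WT replicate 2. The means were 1.67 ± 0.978 and 2.74 ± 2.38 normalized counts (SD, n = 8 each), the exact permutation p was 0.496, and a difference was not detectable at this depth.

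Of the 5 isodecoders tested, 0 passed at an unadjusted p of 0.05, nor did any after adjustment (0), where 4.0% of all 6024 tested rows passed the unadjusted threshold and 0 the adjusted one. Of the 241 rows behind that share, 112 were higher in PS19 (1.86% of all) and 129 lower (2.14%), while 107 of 183 were higher with values scaled to the library total. DESeq2 and edgeR on recovered reads also called 0 of the 5 at either threshold. The fitted differences were positive for 2 rows and negative for 3 (2819 of all 6024 tested rows were positive). TCT-2-1, close to 0, turned negative in 7 of 27 alternative fits, DESeq2 among them, and TCT-4-1 turned positive in 3. The 5 rows had a median log2 difference of -0.11 beside -0.02 over all tested rows. Summed over the 6 rows, Arg-TCT values came to 227 ± 93.8 normalized counts in PS19 and 241 ± 109 in WT (SD, n = 8 each). In these bulk samples fewer cells of a type and less RNA per cell cannot be told apart.

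The spread between libraries was larger than the difference between genotypes. For TCT-1-1 to TCT-4-1 the highest library held 5.59, 4.02, 4.11 and 4.57 times the lowest, and for TCT-5-1 it held 3.06 times. Taken as RPM in place of normalized counts, these ratios were 4.24, 3.39, 3.27, 3.60 and 3.67. The SD of log2(value + 1) over the 16 libraries was 0.72, 0.74, 0.57, 0.66 and 0.47 for TCT-1-1 to TCT-5-1, beside 0.24, 0.22, 0.22, 0.22 and 0.25 from read counting alone. The first holds differences between mice as well as preparation and counting noise. Differences between mice and preparation were not measured apart.

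TCT-1-1 to TCT-4-1 went up and down together from library to library, and TCT-5-1 went with them in only some libraries. In PS19 replicates 1 and 3 and WT replicates 1, 2 and 3, each of the first 4 rows held at least 55.1 normalized counts. In the other 11 libraries each held at most 53.3. This split belongs to normalized counts. There 1 read was worth 1.46, 1.45 and 1.28 in PS19 replicates 1 and 3 and WT replicate 1, the most of all libraries. As RPM, TCT-4-1 in WT replicate 1 lay below its level in PS19 replicate 5. TCT-5-1 was between 19.97 and 32.0 in WT replicates 1, 2 and 3, and at 56.0 in PS19 replicate 6, where TCT-1-1 and TCT-3-1 had their lowest values (19.0 and 23.7). It went with the other rows in PS19 replicate 1, where it had its highest value (61.1), and in PS19 replicate 4 (54.4). It also did so in PS19 replicate 8 (23.4) and WT replicate 7 (24.0). TCT-1-1 to TCT-5-1 all lay above their medians in PS19 replicate 3 and below them in WT replicate 5 as well.

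**Figure D2:**
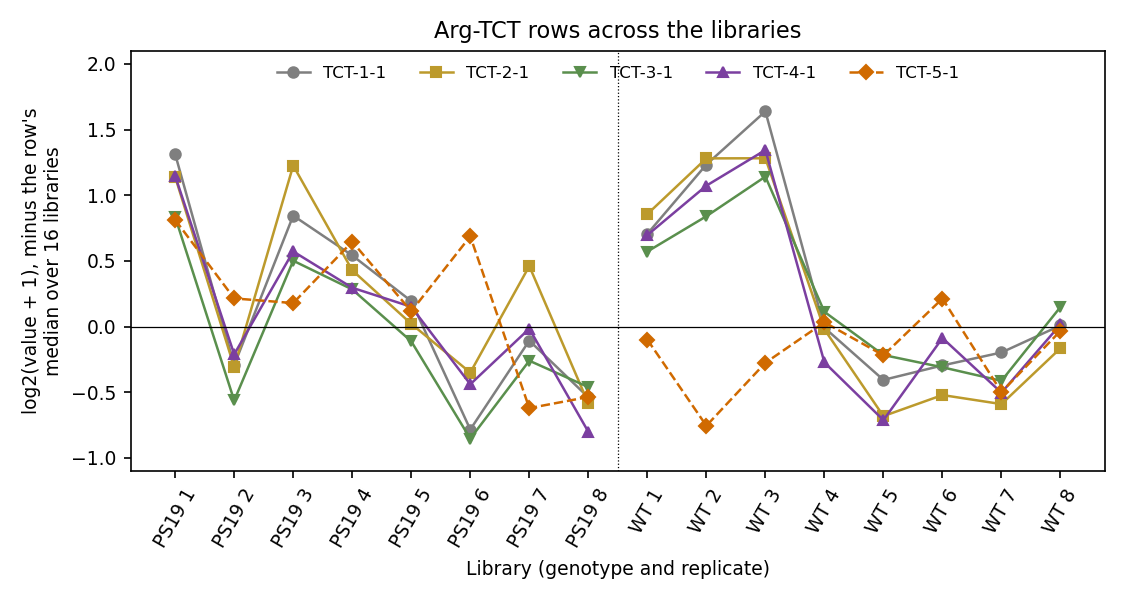
Each row's log2(value + 1) minus its own median over the 16 libraries (vertical axis) for PS19 replicates 1 to 8 and WT replicates 1 to 8 (horizontal axis); lines join a row's points only to guide the eye. On the scale of normalized counts, TCT-1-1 to TCT-4-1 peak together in PS19 1 and 3 and in WT 1 to 3. TCT-5-1 (dashed) is high with them in PS19 1 but low in WT 2 and high in PS19 6.

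The ratio of the nervous-system row to its neighbours was narrow. Over the 16 libraries, the SD of the log2 ratio was 0.20 between TCT-1-1 and TCT-4-1, 0.26 between TCT-2-1 and TCT-4-1, and 0.28 between TCT-3-1 and TCT-4-1. Counting error of separate reads would by itself give 0.32, 0.31 and 0.31. The observed spread of each of these ratios was thus below the counting error of 2 independent sets of reads. How reads that match several rows were counted is not given in the sources used here, and the table does not show whether rows share reads, so the part of shared reads in these ratios was not tested. No 2 of the 6 rows were identical. TCT-4-1 exceeded TCT-1-1 in 14 of 16 libraries and equalled it in 2.

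The ratios to TCT-5-1 were wide. Their SD was 0.76 with TCT-3-1, 0.77 with TCT-4-1, 0.86 with TCT-1-1 and 0.87 with TCT-2-1, beside a counting error of 0.33 to 0.34. TCT-4-1 exceeded TCT-5-1 in 9 libraries, fell below it in 6 and equalled it in 1. On average TCT-4-1 was 0.41 higher on the log2 scale. As rows may differ in length, which the table does not give, these are orders of read numbers and not of tRNA abundance.

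**Figure D3:**
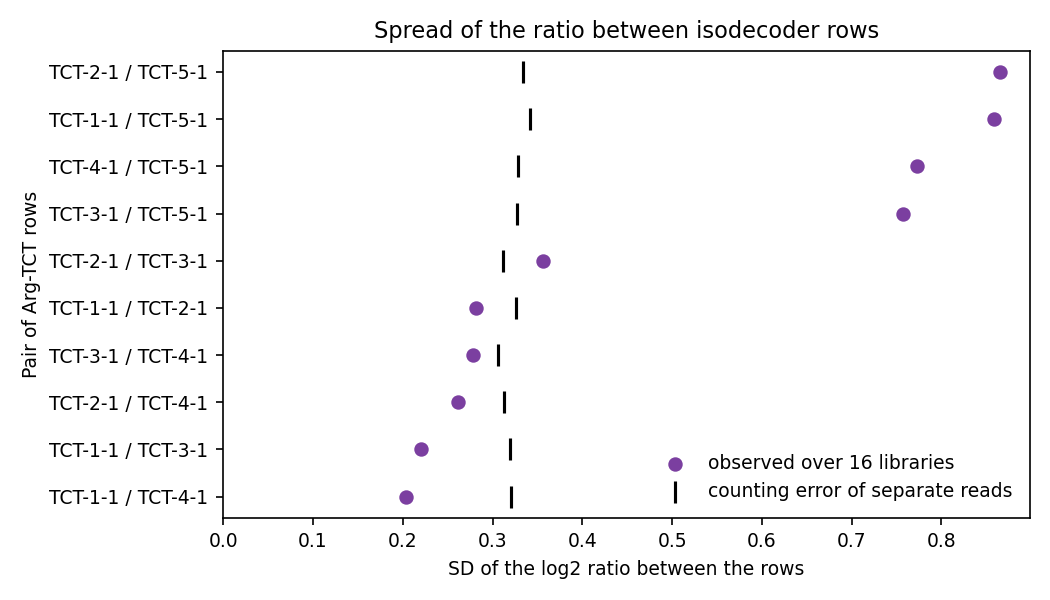
SD over 16 libraries of the log2 ratio between Arg-TCT rows (horizontal axis) for each pair of the 5 tested rows (vertical axis), with the SD expected from counting separate reads as the second mark. The 6 pairs among TCT-1-1 to TCT-4-1 lie at 0.20 to 0.36, near or below the counting mark, and the 4 pairs with TCT-5-1 lie at 0.76 to 0.87.

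The order of the rows by read number changed between libraries. TCT-3-1 was highest of the 5 tested rows in 5 libraries, TCT-2-1 and TCT-5-1 in 4 each and TCT-4-1 in 3. TCT-5-1 was lowest in 8 libraries, TCT-1-1 in 5 and TCT-2-1 in 2, and neither TCT-3-1 nor TCT-4-1 was lowest by itself in any. The means over the 16 libraries were 51.0 for TCT-4-1, 50.1 for TCT-2-1, 49.9 for TCT-3-1, 45.1 for TCT-1-1, 36.0 for TCT-5-1 and 2.20 for TCT-6-1, in that order. Between neighbours the mean log2 ratio was smaller than its SD over libraries, as between TCT-2-1 and TCT-4-1 (-0.06 ± 0.26), TCT-2-1 and TCT-3-1 (-0.06 ± 0.36), TCT-1-1 and TCT-3-1 (-0.21 ± 0.22) and TCT-1-1 and TCT-5-1 (0.21 ± 0.86), and TCT-6-1 alone stood far below its neighbour. TCT-4-1 took 20.8% ± 1.90 of the summed Arg-TCT values in PS19 and 21.6% ± 2.80 in WT (SD, n = 8 each), with a range of 17.6% to 24.7% over all libraries. TCT-5-1 took 19.6% ± 7.55 in PS19 and 15.0% ± 6.58 in WT, with a range of 5.54% to 35.1%.

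Whether PS19 shifted TCT-4-1 against another isodecoder was tested on the ratio within each library. The log2 ratio of TCT-4-1 to TCT-5-1 was 0.16 ± 0.56 in PS19 and 0.66 ± 0.91 in WT (SD, n = 8 each), a difference of -0.50 ± 0.38 (SE; exact permutation p = 0.213, adjusted p = 0.355 over 5 ratios). The log2 ratio to TCT-3-1 was 0.10 ± 0.25 in PS19 and -0.11 ± 0.28 in WT, a difference of 0.21 (exact permutation p = 0.142, adjusted p = 0.355). None of the 5 ratios differed beyond the spread between libraries. If TCT-1-1 to TCT-4-1 share reads, which was not tested, the ratios among them could show less than a true shift. The difference was -0.18 to TCT-2-1, 0.08 to TCT-1-1 and 0.17 to TCT-6-1, with exact permutation p of 0.179, 0.437 and 0.766 and adjusted p of 0.355, 0.546 and 0.766. Without PS19 replicate 8, the difference in the ratio to TCT-3-1 was 0.28 (exact permutation p = 0.0357, not adjusted).

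**Figure D4:**
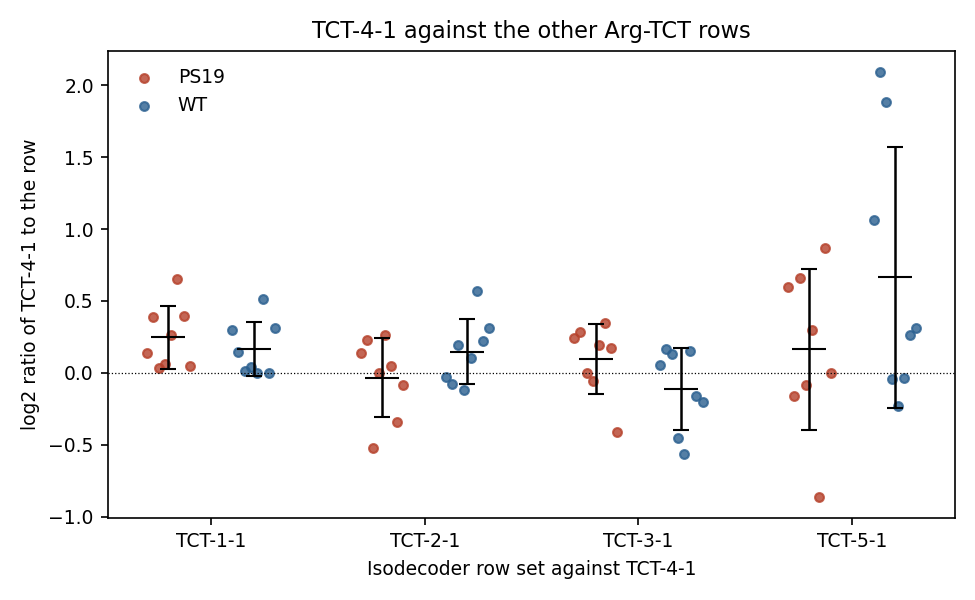
log2 ratio of TCT-4-1 to each of 4 other rows (vertical axis; rows on the horizontal axis), with 1 point per library and the mean and SD of 8 PS19 and 8 WT libraries. Ratios to TCT-1-1, TCT-2-1 and TCT-3-1 stay near 0 in both genotypes, and those to TCT-5-1 spread widely, with means of 0.16 in PS19 and 0.66 in WT.

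The library code in the labels begins with G for all 8 PS19 and for 2 WT libraries, replicates 2 and 4, and with F or A for the other 6 WT libraries. What the letter stands for is not stated. Among G libraries, TCT-4-1 held 47.9 ± 21.9 in PS19 (SD, n = 8) and 34.2 and 88.4 in the WT pair (exact permutation p = 0.622, 45 assignments). TCT-5-1 held 41.7 ± 14.6 in PS19 and 19.97 and 35.2 in the WT pair (exact permutation p = 0.156). With 2 WT libraries this comparison has little power.

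The other 19 arginine tRNA rows read the remaining arginine codons, and 0 of 19 passed an unadjusted p of 0.05 in limma (10 higher and 9 lower in PS19, median log2 difference 0.04). DESeq2 and edgeR called 0 of them as well, while Arg-CCG-3-1 alone passed the unadjusted threshold in 7 of the 27 alternative fits, among them those with the replicate block, with a mean of at least 20 and without WT replicate 7. Arg-CCG-3-1 had the lowest p of the 19, with 104.8 ± 14.7 in PS19 and 79.5 ± 26.0 in WT (SD, n = 8 each) and a log2 difference of 0.45 ± 0.22 (SE; limma p = 0.0530, adjusted p = 0.9998, exact permutation p = 0.0322, not adjusted for its choice among 19 rows). All 6 Arg-ACG rows but 1 had positive differences (median 0.31, lowest limma p 0.145 for ACG-1-3), and all 5 Arg-TCG rows had negative ones (median -0.28, lowest limma p 0.115 for TCG-3-2). The 5 Arg-CCT rows had a median log2 difference of 0.10. Arg-CCT-2-1 and Arg-CCT-2-2 were identical in every library, so these counts of direction may not be counts of separate reads. Over all 405 tested tRNA rows, 22 passed the unadjusted threshold (21 higher and 1 lower), with a median log2 difference of 0.05.

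**Figure D5:**
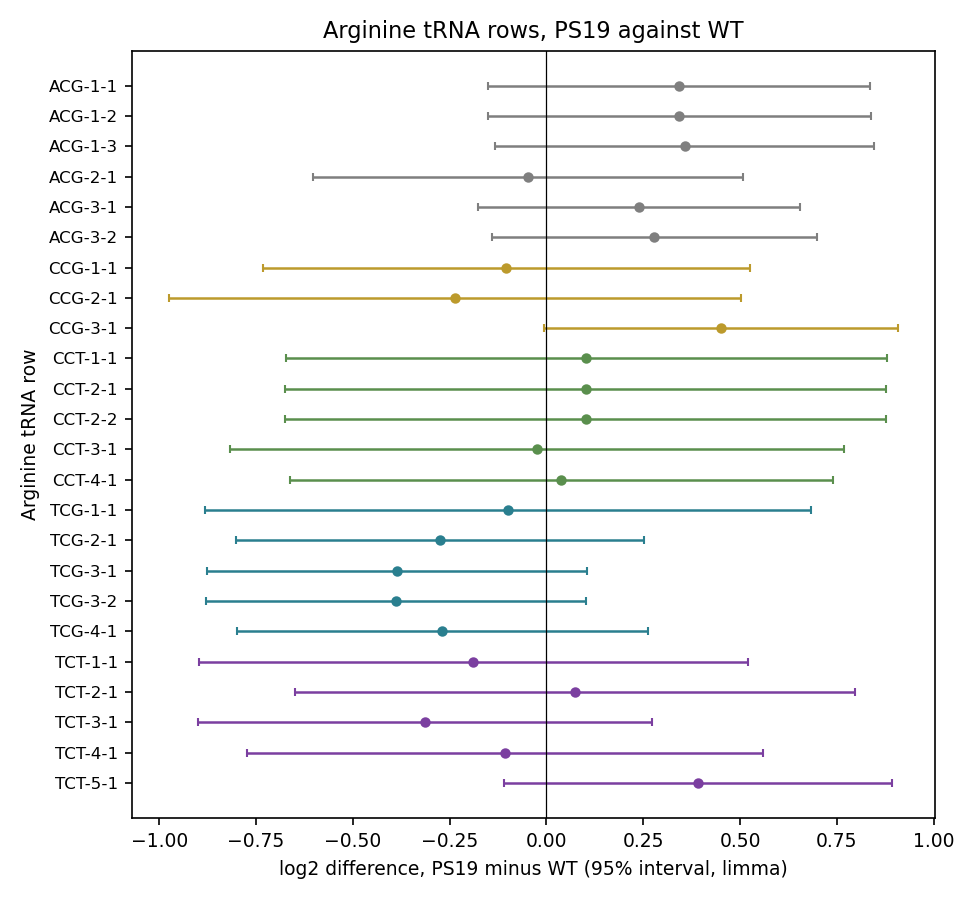
log2 difference, PS19 minus WT, with its 95% interval from limma (horizontal axis) for the arginine tRNA rows that passed the filter (vertical axis), Arg-TCT rows beside the other anticodons. Every interval includes 0, with TCT-5-1 at 0.39 the highest and TCT-3-1 at -0.31 the lowest of the Arg-TCT rows.

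Arg-TCT rows made up 8.01% ± 1.195 of the summed arginine tRNA values in PS19 and 8.75% ± 2.62 in WT (SD, n = 8 each). Most of that sum came from the Arg-CCT rows (means of 2059 in PS19 and 2276 in WT). Arg-CCT-2-1 and Arg-CCT-2-2 were identical, and reads counted in several rows would make the Arg-TCT share too low. The highest mean among the 25 arginine rows was that of Arg-CCT-4-1, at 568.9 normalized counts. Among all tRNA values the Arg-TCT share was 0.00352% in PS19 and 0.00375% in WT, while tRNA rows together held 25.3% to 52.5% of all values in a library. Arg-TCT reads were thus a very small part of the tRNA signal of these libraries.

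Likeness of pattern was measured as the SD over the 16 libraries of the difference in log2(value + 1), where a smaller SD is a closer course. Among the 5720 rows with distinct values that were no members, the closest to TCT-4-1 were mmu-miR-668-3p at 0.28, mmu-mir-345 at 0.30, the snoRNA Gm25855 at 0.33, mmu-miR-700-3p at 0.33 and mmu-mir-668 at 0.33. The median over all tested rows was 0.91. TCT-1-1 and TCT-2-1 were closest to products of 1 miRNA gene, mmu-mir-345 at 0.33 and mmu-miR-345-3p at 0.34, and TCT-3-1 was closest to mmu-miR-874-3p at 0.24. TCT-5-1 stood apart from these, with another tRNA, Leu-TAG-3-1, as its closest row at 0.26. These are descriptions over 16 libraries, and within each library all rows share its depth and scaling.

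Among the other arginine rows, TCT-4-1 lay at 0.45 to 0.50 from the Arg-CCT rows, 0.63 to 0.76 from Arg-ACG, 0.63 to 0.85 from Arg-TCG and 0.71 to 0.85 from Arg-CCG. TCT-1-1 and TCT-2-1 were likewise nearest to Arg-CCT rows, at 0.48 to 0.54 and 0.45 to 0.48. TCT-3-1 lay about equally far from several groups, at 0.53 to 0.59 from Arg-CCT, 0.58 to 0.73 from Arg-ACG and 0.51 to 0.71 from Arg-TCG. TCT-5-1 lay at 0.43 to 0.53 from the Arg-ACG rows and at 0.84 to 0.94 from Arg-CCT. No test of these differences in likeness was run.

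Markers of neurons, the cells in which TCT-4 is known to be made, were present in every library. The 5 neuron miRNAs (mmu-miR-124-3p, mmu-miR-128-3p, mmu-miR-9-5p, mmu-miR-137-3p and mmu-miR-138-5p) summed to 294699 to 1026140 normalized counts in PS19 and to 341530 to 953149 in WT, and 0 of 5 passed an unadjusted p of 0.05 in limma. The SD of the log2 ratio of TCT-4-1 to single markers ran from 0.49 (mmu-miR-138-5p) to 0.83 (mmu-miR-137-3p), and mmu-miR-138-5p lay as near as the Arg-CCT rows. The median was 0.91 over all 6024 tested rows, of which 2510 had a mean of at least 20. Low counts widen such a ratio, so lying below that median says little about likeness to neurons. To the sum of the 5 markers the SD was 0.71, and to the sum of all tRNA rows it was 0.63. Most of the marker sum was mmu-miR-128-3p (means of 506408 in PS19 and 466399 in WT). Oligodendrocyte markers summed to 18523 to 52341 in PS19 and 13367 to 46513 in WT, and immune markers to 523 to 2898 and 402 to 1466. mmu-miR-146a-5p carried nearly all of the immune sum (means of 1388 and 1017), while mmu-miR-142a-3p, mmu-miR-142a-5p and mmu-miR-223-3p had means of 3.75, 2.38 and 2.62 in PS19 and 1.02, 2.14 and 4.71 in WT. Of the oligodendrocyte sum, nearly all was mmu-miR-219a-2-3p. Endothelial markers summed to 5017 to 28305 and 5112 to 27200, those of liver and muscle to 2229 to 14209 and 2880 to 10707, and those of red blood cells to 5.69 to 41.1 and 1.90 to 29.9. The part of these cell types in the Arg-TCT values was not tested.

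Library depth, taken as the recovered reads summed over all 18488 rows, was 13187096 to 23058568, with a mean of 16921711 in PS19 and 18341692 in WT. It is not the number of reads sequenced. A read counted in several rows would enter this total, and the RPM and shares that rest on such sums, more than once.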

How the data were processed

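The analysis covered 8 PS19 and 8 WT libraries of small RNA from cortex, with genotype and replicate number taken from the labels. Per the study's methods, the authors prepared adapter-ligated small RNA libraries, sequenced them as single-end reads, and counted reads per ncRNA in COMPSRA, which aligns with STAR. The submitters' processing notes list STAR 2.5.3a, DESeq2 1.42.1 and mm10. The deposited values are a signal, namely read counts that the authors divided by 1 size factor per library. Every value was a whole multiple of 1 read (tolerance 1e-06), so whole reads were recovered. In WT replicates 4 and 6 the value of 1 read was close to 1, which makes the recovery less certain there. Authors' columns of mean signal, fold change, standard error, test statistic and p-values were not used. All 16 library columns were used, and 0 were set aside.

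Values were transformed as log2(value + 1), and rows with a mean of at least 5 were fitted with limma 3.58.1 (lmFit, eBayes with trend, R 4.3.3) on genotype alone, with Benjamini-Hochberg adjustment over all 6024 rows. Fold changes are on the log2(value + 1) scale, which understates changes of low rows. Ratios between rows were tested by two-sided exact permutation in Python 3.11.15 (scipy 1.17.1), adjusted over 5. Alternatives used DESeq2 1.42.0 and edgeR 4.0.16 on recovered reads, other scalings, filters and pseudocounts, further model terms, and leaving out each library. The fits were tested on simulated data.

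Every Arg-TCT row is named. Other arginine rows are named for the lowest p or highest mean of an anticodon, apart from Arg-CCT-2-1 and Arg-CCT-2-2, named as identical rows. Like rows are named for the smallest SD of the log2 difference (5 for TCT-4-1 and 1 for each other tested row). Members and lists were chosen with earlier results of these data known. Marker lists were 5 miRNAs for neurons, 3 for oligodendrocytes, 4 for immune cells, 2 each for endothelium and red blood cells and 3 for liver and muscle. RefSeq genes were taken from GRCm38.p6. P-values set the difference between genotypes against the spread between these samples.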

Additional observations from a re-analysis of the deposited data

How the results depend on the processing

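The tested Arg-TCT rows, TCT-1-1 to TCT-5-1, were refitted under 27 alternatives, 16 of which left out 1 library. The other filters, the replicate block and the linear replicate number cannot move the difference of a row, only its p. The count of Arg-TCT rows past an adjusted p of 0.05 was 0 in all 27. The count past an unadjusted p of 0.05 was 0 except without PS19 replicate 7, where it was 1 (TCT-5-1), a range of 0 to 1. For TCT-4-1 the log2 difference ranged from -0.26 to 0.057 when libraries were left out and was positive without PS19 replicate 8, WT replicate 2 or WT replicate 3. It was -0.31 with the library code letter as a term. For TCT-2-1 it turned negative in DESeq2 (-0.0034) and with the letter (-0.38) and ranged from -0.065 to 0.23 when libraries were left out. TCT-1-1, TCT-3-1 and TCT-5-1 kept their sign under the alternatives that can move it, but not their size. TCT-1-1 ranged from -0.36 to -0.0023 when libraries were left out, the latter without WT replicate 3, and was -0.47 with the letter. TCT-3-1 ranged from -0.44 to -0.18 (without WT replicate 3) and was -0.55 with the letter, and TCT-5-1 ranged from 0.30 to 0.51 and was 0.55 with the letter. The count of other arginine rows past an unadjusted p of 0.05 was 1 in place of 0 with a mean of at least 20, with the replicate block and with the replicate number as a linear term, which was added after seeing the data. Left-out libraries gave 0 to 1 (1 without PS19 replicate 3 or WT replicate 2, 6 or 7). In each case the row was Arg-CCG-3-1. The difference in the log2 ratio of TCT-4-1 to TCT-3-1 ranged from 0.14 to 0.28 and that to TCT-6-1 from -0.092 to 0.53 when libraries were left out, the latter negative without WT replicate 4. The ratio to TCT-5-1 ranged from -0.63 to -0.29 (without WT replicate 2), that to TCT-1-1 from 0.024 (without PS19 replicate 6) to 0.13 and that to TCT-2-1 from -0.22 to -0.11 (without PS19 replicate 3). The cause of these changes was not tested.

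The replicate numbers did not meet the rule for pairing, a correlation of deviations over 0.1 in every pair of same-numbered libraries: all 8 were positive, at 0.0446 to 0.456, and 6 were over 0.1, while 2 of 8 PS19 libraries correlated best with the WT library of their own number. With the replicate block, 419 rows in place of 241 passed an unadjusted p of 0.05 over all rows and 0 an adjusted one, and the Arg-TCT count stayed at 0. Over all features the count was 680 of 17088 without the filter, 136 of 2510 with a mean of at least 20, and, of 6024 each, 335 with the linear replicate number, 124 with the letter as a term, 167 with RNA classes scaled separately and 183 scaled to the total. DESeq2 gave 283 at the unadjusted and 15 at the adjusted threshold, and edgeR 265 and 0. TCT-1-1 to TCT-5-1 rested on 20 to 125 reads per library and TCT-6-1 on 0 to 7, and the effect of depth was not tested.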
